A study of Mus musculus with 12 samples.

Results

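The Notch receptors *Notch1*, *Notch2* and *Notch3*, the ligands *Dll1*, *Dll3*, *Dll4*, *Jag1* and *Jag2*, and the target genes *Hes1* and *Hes5* were followed across 4 flow-sorted cell populations of mouse glioblastoma (GBM). These 10 genes were taken by symbol from the 18180 genes in the deposited expression table, and all 10 were present. The populations were EGFR+ cells split by surface PDGFR into PDGFRA+ and PDGFRA- cells, and EGFR+ cells split by Galectin-1 into GAL1+ and GAL1- cells. Each was profiled by bulk RNAseq from the same 3 end-stage tumors, T3, T4 and T5, giving 12 libraries. Every tumor came from mice of a mixed background (C57Bl/6J, 129S4, FVBN/J and Balb/cJ by the labels, and SJL too by the study's methods) that carried, among other alleles, a conditional human EGFR transgene, no Cdkn2a and a conditional luciferase reporter. Tumors were started by intracranial injection of a lentivirus expressing Cre, so the recombined cells were those the virus reached, and the ages of the 3 tumor-bearing mice are not in the labels. All 4 populations came from mice with these alleles, so no comparison here is between mouse genotypes. The share of recombined cells in each population was not measured.

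Notch receptors are single-pass proteins that are activated by Delta-like or Jagged ligands on a neighboring cell. Ligand binding opens the receptor to cleavage by ADAM proteases and then by γ-secretase, and the freed intracellular domain joins RBPJ in the nucleus to switch on genes such as *Hes1* and *Hes5*, which encode transcriptional repressors. In the nervous system the pathway is known for holding neural and oligodendrocyte precursors in an undifferentiated state, and in blood vessels *Dll4*, *Jag1*, *Notch1*, *Notch3* and *Notch4* pattern endothelial and mural cells.

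The promoter sequences below show where RBPJ and HES proteins could read the DNA of the members whose levels varied most between populations, together with *Hes5*. They are the 250 bases before the RefSeq transcription start in GRCm38.p6, 5′ to 3′ on the strand of the gene, at chr4:154960673-154960922 (plus strand, *Hes5*), chr7:28301786-28302035 (minus strand, *Dll3*), chr2:119325534-119325783 (plus strand, *Dll4*) and chr3:98013288-98013537 (plus strand, *Notch2*). Capitals mark TGGGAA, the core of the RBPJ site, in *Hes5*, and CACNAG, the N-box that HES proteins bind, in *Dll4* and *Notch2*, each read on both strands.
Hes5: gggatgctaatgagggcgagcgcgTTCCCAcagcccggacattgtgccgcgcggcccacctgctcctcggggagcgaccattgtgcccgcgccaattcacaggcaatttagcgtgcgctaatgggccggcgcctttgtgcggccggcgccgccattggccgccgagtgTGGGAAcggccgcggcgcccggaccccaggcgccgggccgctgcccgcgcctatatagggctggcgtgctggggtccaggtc
Dll3: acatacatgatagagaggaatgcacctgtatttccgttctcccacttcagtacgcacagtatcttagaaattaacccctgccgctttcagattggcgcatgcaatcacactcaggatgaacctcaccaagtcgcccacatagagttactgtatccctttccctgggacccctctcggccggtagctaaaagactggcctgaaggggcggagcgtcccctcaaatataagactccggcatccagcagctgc
Dll4: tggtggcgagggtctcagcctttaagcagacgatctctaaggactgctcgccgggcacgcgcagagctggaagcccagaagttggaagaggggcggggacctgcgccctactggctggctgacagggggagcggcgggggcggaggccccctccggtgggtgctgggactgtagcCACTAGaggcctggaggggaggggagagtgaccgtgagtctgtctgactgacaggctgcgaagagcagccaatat
Notch2: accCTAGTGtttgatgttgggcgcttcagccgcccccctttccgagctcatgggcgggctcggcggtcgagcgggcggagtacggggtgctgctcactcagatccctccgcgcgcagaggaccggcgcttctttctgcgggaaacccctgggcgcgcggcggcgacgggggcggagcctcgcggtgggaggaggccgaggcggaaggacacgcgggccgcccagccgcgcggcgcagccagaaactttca
Windows reaching from 250 bases before to 50 bases after the start were searched for 9 of the 10 members, in 10 windows, since *Dll1* has 2 and *Hes1* is not in the promoter table. *Hes5* was the single member with the RBPJ core, at -226 on the reverse strand and at -82 on the forward strand counted from the start. At least 1 such match was present in 25.6% and at least 2 in 3.79% of all 32851 mouse windows. The N-box was present in 5 members (*Dll1*, *Dll4*, *Notch1*, *Notch2* and *Notch3*) and in 42.5% of all windows, and CACGTG, the E-box, in 0 members and 7.15% of windows. These matches are letters in a window and carry no measurement of binding.

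Expression is given as log2 CPM, the log2 of normalized read counts scaled to library size (CPM) as the authors deposited it, and differences are log2 fold changes from a linear model (limma) with tumor as a block, with p-values adjusted over all 18180 genes by the Benjamini-Hochberg method and a threshold of 0.05. The libraries held 9851175 to 24117541 assigned reads. *Pdgfra* reached 9.95 to 10.81 in PDGFRA+ and 7.36 to 10.11 in PDGFRA- libraries, so T3 overlapped between them, and *Lgals1*, the gene for Galectin-1, was 7.41 to 7.95 in GAL1+ and 6.05 to 6.81 in GAL1- libraries. Markers of cells other than tumor cells were measurable in every population. The pan-leukocyte, endothelial and mural lists differed most within the GAL1 sort. The 8 oligodendrocyte genes were lower in the positive fraction of both sorts. They summed to 164 to 293 CPM in GAL1+, 259 to 334 in PDGFRA+, 698 to 1011 in PDGFRA- and 342 to 582 in GAL1- libraries. The T and NK cell genes summed to 18.1 to 39.8, 19.0 to 28.7, 27.7 to 44.5 and 8.71 to 26.1 CPM in that order. Summed over 12 pan-leukocyte genes the level was 2934 to 4006 CPM in GAL1+, 666 to 1511 in PDGFRA+, 685 to 3115 in PDGFRA- and 82.4 to 217 in GAL1- libraries. The 12 endothelial genes summed to 386 to 533, 210 to 462, 306 to 344 and 66.1 to 127 CPM in the same order, the 11 mural genes to 161 to 273, 83.2 to 227, 118 to 256 and 35.7 to 50.7 CPM, and the 10 oligodendrocyte precursor (OPC) genes to 601 to 1610, 3520 to 4705, 2022 to 3777 and 4679 to 5485 CPM. The study describes the sorted cells as CD45-, and *Ptprc*, the gene for CD45, was 8.21 to 9.0 log2 CPM in GAL1+ and 3.70 to 5.18 in GAL1- cells. No listed marker was at or under the limit of 3 reads in all 3 libraries of a population, *Ptprc*, *Pecam1* and *Pdgfrb* included. The PDGFRA- library of T5 stood apart from the PDGFRA- libraries of T3 and T4, with *Ptprc* at 8.66 and *Egfr* at 8.16, against *Ptprc* at 7.08 and 6.65 and *Egfr* at 10.18 and 10.02. In bulk samples of this kind, fewer cells of a type and less RNA of a gene in each cell cannot be told apart, and the part these other cells play in the differences below was not tested.

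**Figure D1:**
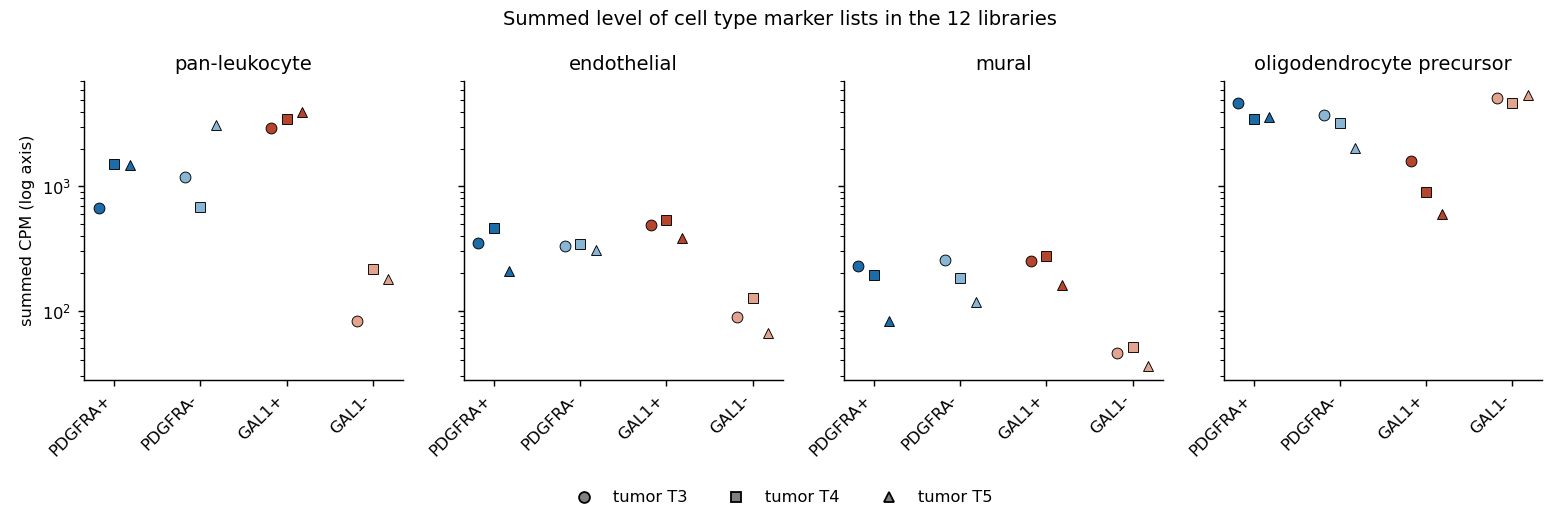
Summed CPM (log axis) of the pan-leukocyte, endothelial, mural and oligodendrocyte precursor marker lists in each of the 12 libraries, by population, with 1 symbol per tumor. The GAL1- libraries were lowest for the first 3 lists, at 82.4 to 217, 66.1 to 127 and 35.7 to 50.7 CPM, and the GAL1+ libraries were lowest for the precursor list, at 601 to 1610 CPM.

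Between GAL1+ and GAL1- cells 9 of the 10 Notch genes differed past the threshold, against 58.2% of all genes. Of the 10 genes, 5 were higher in GAL1+ cells (*Dll4*, *Jag1*, *Jag2*, *Notch2* and *Notch3*) against 28.9% of all genes, and 4 were lower (*Dll1*, *Dll3*, *Notch1* and *Hes5*) against 29.3% of all genes, while *Hes1* did not pass the test. The median log2 fold change over the 10 genes was 0.64, and over all genes -0.03. The ligands thus fell into 2 sets, *Dll1* and *Dll3* on the GAL1- side and *Dll4*, *Jag1* and *Jag2* on the GAL1+ side. The 9 genes moved the same way in each of the 3 tumors, which is not separate support, since the test that picked them used these same tumors. Without the tumor block 7 of the 9 passed, and *Notch3* (adjusted p = 0.0897) and *Hes5* (adjusted p = 0.0819) did not.

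**Figure D2:**
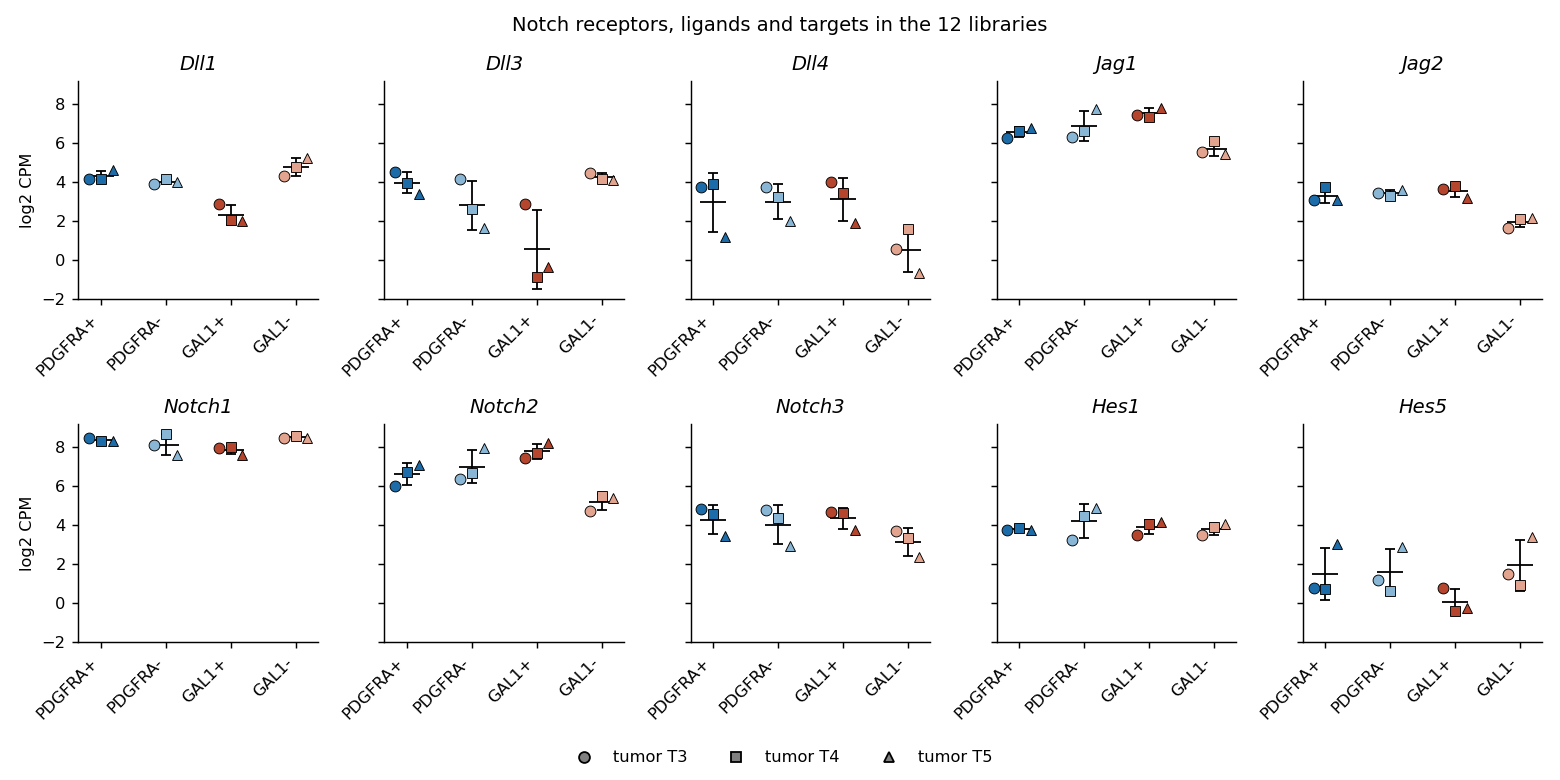
log2 CPM of the 10 Notch genes in each of the 12 libraries, by population, with 1 symbol per tumor and bars for the mean ± SD (n = 3 tumors). *Dll1* and *Dll3* were lowest in GAL1+ cells (means 2.29 and 0.53), *Dll4*, *Jag1*, *Jag2*, *Notch2* and *Notch3* were lowest in GAL1- cells (means 0.50, 5.68, 1.96, 5.18 and 3.13), and *Dll4* and *Notch3* were lowest in T5 within every population.

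*Dll3* encodes a divergent Delta-like ligand that acts inside the cell to dampen Notch signaling. In GAL1+ cells it was 2.86, -0.90 and -0.38 log2 CPM in T3, T4 and T5, resting on as few as 6.25 reads, and in GAL1- cells it was 4.47, 4.13 and 4.07. In PDGFRA+ cells it was 4.50, 3.96 and 3.39, and in PDGFRA- cells 4.15, 2.60 and 1.63. GAL1+ cells were low in every tumor and did not overlap the GAL1- or PDGFRA+ libraries, whereas PDGFRA- cells ran from the level of GAL1- cells in T3 to below the GAL1+ library of T3 in T4 and T5. The GAL1+ library of T3, the highest of its group, also had the highest OPC marker sum of that group, 1610 CPM against 909 and 601. *Dll3* was 13-fold lower in GAL1+ than in GAL1- cells (log2 fold change -3.70 ± 0.58, SE; adjusted p = 0.000517) and 10.7-fold higher in PDGFRA+ than in GAL1+ cells (3.43 ± 0.58, adjusted p = 0.00277). The first was -4.74 without T3 and -3.03 without T4, and the second 4.32 and 2.71, all past the threshold. It was also higher in PDGFRA- than in GAL1+ cells (2.27 ± 0.58, adjusted p = 0.0277), a difference that lost its call without the block (adjusted p = 0.148), without T4 (1.65, adjusted p = 0.20) and without T5 (2.40, adjusted p = 0.0778). In order of mean level the populations ran GAL1-, PDGFRA+, PDGFRA- and GAL1+, and neither of the first 2 steps passed the test.

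*Dll1*, a canonical activating ligand of neural precursors, followed the same order. It was 2.86, 2.04 and 1.97 log2 CPM in GAL1+ cells and 4.27, 4.76 and 5.22 in GAL1- cells. PDGFRA+ cells held 4.12, 4.15 and 4.60, and PDGFRA- cells 3.89, 4.14 and 3.98. All 9 libraries of the other 3 populations lay above all 3 GAL1+ libraries. *Dll1* was 5.50-fold lower in GAL1+ than in GAL1- cells (-2.46 ± 0.29, adjusted p = 0.000122), 3.99-fold higher in PDGFRA+ than in GAL1+ cells (2.0 ± 0.29, adjusted p = 0.00182) and 3.28-fold higher in PDGFRA- than in GAL1+ cells (1.71 ± 0.29, adjusted p = 0.0089). The last of these lost its call without T4 (1.52, adjusted p = 0.117). Differences among GAL1-, PDGFRA+ and PDGFRA- cells did not pass the test, with GAL1- over PDGFRA- the widest of them (PDGFRA- over GAL1- -0.75, 95% interval -1.41 to -0.09, adjusted p = 0.094).

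*Dll4*, the ligand of sprouting endothelium, had the opposite pattern. It was 0.58, 1.60 and -0.67 log2 CPM in GAL1- cells, where 15.0 to 71.8 reads were counted, and 4.01, 3.43 and 1.88 in GAL1+ cells. In PDGFRA+ cells it was 3.75, 3.87 and 1.19, and in PDGFRA- cells 3.71, 3.23 and 1.98. GAL1- cells were lowest within each tumor, and the PDGFRA+ library of T5 fell below the GAL1- library of T4. *Dll4* was 6.08-fold higher in GAL1+ (2.61 ± 0.33, adjusted p = 0.000167), 5.40-fold higher in PDGFRA+ (2.43 ± 0.33, adjusted p = 0.00257) and 5.54-fold higher in PDGFRA- cells (2.47 ± 0.33, adjusted p = 0.00126) than in GAL1- cells. Without the block the last 2 gave adjusted p = 0.192 and 0.103, and without T3 the PDGFRA+ difference was 2.07 (adjusted p = 0.0859). Among GAL1+, PDGFRA- and PDGFRA+ cells the means lay within 0.17 log2 units, and the endothelial marker *Cdh5* was likewise lowest in GAL1- cells, at 1.90 to 2.92 against 3.35 to 5.72 elsewhere.

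By mean over the 3 tumors, *Jag1* was the most abundant ligand per exon length in each population, at 3.13 to 4.96 log2 CPM per kb. Its close relative *Jag2* lay between -0.84 and 0.73 on that scale. Single GAL1- libraries differed from this ranking. As shares of ligand RNA per length, *Dll3* (37.2%) matched *Jag1* (37.1%) in T3, and *Dll1* (38.6%) exceeded *Jag1* (32.3%) in T5. By mean, *Jag2* was the lowest ligand in PDGFRA+ and PDGFRA- cells, *Dll3* in GAL1+ cells (-0.99) and *Dll4* in GAL1- cells (-1.44). The lowest ligand differed between tumors in each population. *Jag1* was 7.44, 7.30 and 7.78 log2 CPM in GAL1+ and 5.50, 6.09 and 5.44 in GAL1- cells, and 6.25, 6.58 and 6.76 in PDGFRA+ and 6.29, 6.59 and 7.71 in PDGFRA- cells. *Jag2* was 3.61, 3.80 and 3.18 in GAL1+ and 1.62, 2.11 and 2.16 in GAL1- cells, and 3.08, 3.72 and 3.08 in PDGFRA+ and 3.40, 3.29 and 3.57 in PDGFRA- cells. For both genes all GAL1- libraries lay below every library of the other populations. *Jag1* rose 3.56-fold (1.83 ± 0.28, adjusted p = 0.000461) and *Jag2* 2.97-fold (1.57 ± 0.23, adjusted p = 0.000315) in GAL1+ over GAL1- cells. *Jag1* was also 1.96-fold lower in PDGFRA+ than in GAL1+ cells (-0.97 ± 0.28, adjusted p = 0.0238), which was lost without the block (adjusted p = 0.0631) and without T3 (-0.87, adjusted p = 0.18). *Jag2* did not pass that comparison (-0.24, 95% interval -0.75 to 0.27) but was higher in PDGFRA+ (1.33 ± 0.23, adjusted p = 0.00561) and PDGFRA- cells (1.45 ± 0.23, adjusted p = 0.0023) than in GAL1- cells, both of which were lost without T3 (adjusted p = 0.116 and 0.0512). *Jag1* was higher in PDGFRA- than in GAL1- cells (1.19 ± 0.28, adjusted p = 0.0167), and this was lost without T5 (0.65, adjusted p = 0.117), without T3 (1.39, adjusted p = 0.0742) and without the block (adjusted p = 0.0516). The *Jag1* means ran GAL1+, PDGFRA-, PDGFRA+ and GAL1- from high to low, with no single step past the threshold.

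*Notch2*, the receptor also known from myeloid cells, differed past the threshold at 2 of the 3 steps of its order (GAL1+, PDGFRA-, PDGFRA+, GAL1-), the first and the last. It was 7.41, 7.71 and 8.20 log2 CPM in GAL1+ and 4.69, 5.49 and 5.37 in GAL1- cells. PDGFRA+ cells held 5.97, 6.73 and 7.09 and PDGFRA- cells 6.33, 6.67 and 7.94. The GAL1- libraries were below all others, and the GAL1+ libraries were above all PDGFRA+ libraries, while the PDGFRA- library of T5 lay among the GAL1+ values. *Notch2* rose 6.03-fold in GAL1+ over GAL1- cells (2.59 ± 0.22, adjusted p = 3.93e-05). It was 2.26-fold lower in PDGFRA+ than in GAL1+ cells (-1.18 ± 0.22, adjusted p = 0.00396) and 2.66-fold higher in PDGFRA+ than in GAL1- cells (1.41 ± 0.22, adjusted p = 0.0038). Without the block these 2 gave adjusted p = 0.0748 and 0.112, and without T3 0.0842 and 0.0966. The smaller PDGFRA- over GAL1+ difference was -0.79 ± 0.22 (adjusted p = 0.034) and was lost without the block (adjusted p = 0.276), without T3 (adjusted p = 0.245) and without T4 (adjusted p = 0.176), and was -1.09 without the PDGFRA- library of T5. The pan-leukocyte sum followed the same order, with the PDGFRA- library of T5, at 3115 CPM, again among the GAL1+ libraries.

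*Notch1*, by mean the most abundant receptor per exon length in 3 of the 4 populations, varied least among the receptors. It was 7.92, 7.97 and 7.60 log2 CPM in GAL1+ and 8.47, 8.53 and 8.47 in GAL1- cells, and 8.43, 8.31 and 8.29 in PDGFRA+ and 8.11, 8.65 and 7.58 in PDGFRA- cells. It was 1.58-fold lower in GAL1+ than in GAL1- cells (-0.66 ± 0.18, adjusted p = 0.0113) and 1.43-fold higher in PDGFRA+ than in GAL1+ cells (0.52 ± 0.18, adjusted p = 0.049). The groups did not overlap in either comparison. The first was lost without T3 (-0.72, adjusted p = 0.0791), and the second without T3 (adjusted p = 0.235), without T5 (adjusted p = 0.126) and without the block (adjusted p = 0.125). No neighbors in its order of levels (GAL1-, PDGFRA+, PDGFRA-, GAL1+) differed past the threshold.

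*Notch3*, a receptor of mural cells, was 4.65, 4.61 and 3.74 log2 CPM in GAL1+ and 3.70, 3.34 and 2.35 in GAL1- cells. It was 4.81, 4.58 and 3.42 in PDGFRA+ and 4.76, 4.38 and 2.92 in PDGFRA- cells. GAL1- cells were lowest within every tumor, but the ranges of the populations overlapped because T5 was low throughout. *Notch3* was 2.30-fold higher in GAL1+ (1.20 ± 0.17, adjusted p = 0.000282), 2.19-fold higher in PDGFRA+ (1.13 ± 0.17, adjusted p = 0.00337) and 1.85-fold higher in PDGFRA- cells (0.89 ± 0.17, adjusted p = 0.00606) than in GAL1- cells. None of these 3 passed without the block (adjusted p = 0.0897, 0.465 and 0.326). The second was lost without T3 (adjusted p = 0.082) and the third without T3 or T4 (adjusted p = 0.0653 and 0.059). The mural list was also lowest in GAL1- cells, at 35.7 to 50.7 CPM against 83.2 to 273 CPM elsewhere.

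The 2 target genes differed from each other. *Hes1* was 3.47, 4.04 and 4.13 log2 CPM in GAL1+ and 3.47, 3.87 and 4.07 in GAL1- cells, and 3.74, 3.83 and 3.76 in PDGFRA+ and 3.25, 4.47 and 4.89 in PDGFRA- cells. It passed none of the 6 pairwise tests, and its GAL1+ over GAL1- difference of 0.07 had a 95% interval of -0.49 to 0.63. *Hes5* was 0.79, -0.40 and -0.24 in GAL1+ and 1.48, 0.93 and 3.38 in GAL1- cells, and 0.75, 0.71 and 3.02 in PDGFRA+ and 1.20, 0.61 and 2.89 in PDGFRA- cells. T5 was high in the other 3 populations and not in GAL1+ cells. *Hes5* was 3.68-fold lower in GAL1+ than in GAL1- cells (-1.88 ± 0.55, adjusted p = 0.0145), and without T5 the difference was -1.01 (adjusted p = 0.0789). Its PDGFRA+ over GAL1+ difference of 1.44 ± 0.55 missed the threshold (adjusted p = 0.0622). *Hes5* rested on 9 to 257 reads and *Hes1* on 159.7 to 416 reads in each library. In the GAL1 sort *Hes5* thus lay on the side of *Dll1*, *Dll3* and *Notch1*, with a call lost without T5 and without the block (adjusted p = 0.0819).

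**Figure D3:**
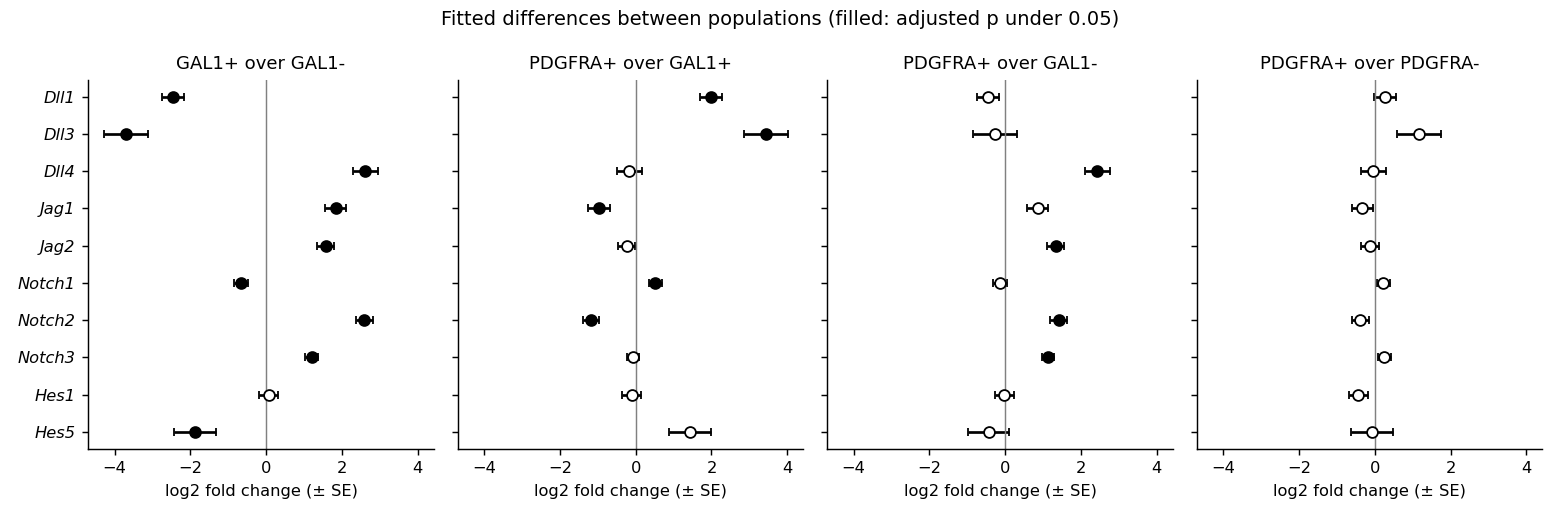
Log2 fold change ± SE of the 10 Notch genes in 4 comparisons from the linear model over all 12 libraries, with filled points where the adjusted p was under 0.05. GAL1+ over GAL1- has 9 filled points, PDGFRA+ over GAL1+ has 5, PDGFRA+ over GAL1- has 4 and PDGFRA+ over PDGFRA- has 0.

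Between PDGFRA+ and GAL1+ cells, the pair that contrasts the positive fractions of both sorts, 3 genes were higher in PDGFRA+ cells (*Dll1*, *Dll3* and *Notch1*) against 20.9% of all genes, and 2 were lower (*Jag1* and *Notch2*) against 17% of all genes. The median was -0.09 over the 10 genes and 0.01 over all genes. Only *Dll1* and *Dll3* of these 5 also passed without the block (adjusted p = 0.00671 and 0.0253), and the same count of 2 was left without T3. PDGFRA+ and GAL1- cells differed in 4 genes, all higher in PDGFRA+ cells (*Dll4*, *Jag2*, *Notch2* and *Notch3*; 8.26% of all genes), and 0 were lower against 0.011% of all genes. That count fell to 1 (*Jag2*) without the block and to 0 without T3. PDGFRA- cells had 2 genes above GAL1+ cells (*Dll1* and *Dll3*; 13.2% of all genes) and 1 below (*Notch2*; 6.91%), which became 1 gene (*Dll1*) without the block, 0 without T4 and 5 without the PDGFRA- library of T5. PDGFRA- cells had 5 genes above GAL1- cells (*Dll4*, *Jag1*, *Jag2*, *Notch2* and *Notch3*; 16.2% of all genes) and 0 below (6.88%), and 2 of these, *Jag2* and *Notch2*, passed without the block, while without T3 *Dll4* and *Notch2* stayed past the threshold and *Dll3* was lower (-1.99, adjusted p = 0.0415), 3 genes in all. These comparisons share libraries with the GAL1+ over GAL1- comparison and with each other. A test for any difference among the 4 populations passed for 7 of the 10 genes against 46.4% of all genes. Without the block 5 passed, and *Dll4* (adjusted p = 0.0785) and *Notch3* (adjusted p = 0.289) did not. The exceptions with the block were *Notch1* (adjusted p = 0.0511), *Hes5* (adjusted p = 0.0616) and *Hes1* (adjusted p = 0.444).

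PDGFRA+ and PDGFRA- cells were not separated by any Notch gene. In limma 0 of 10 passed, with a smallest adjusted p of 0.47 for *Dll3*, and 0 had an unadjusted p under 0.05, with or without the block. Among all genes 0% passed and 11.8% had an unadjusted p under 0.05. The 95% intervals still leave room for differences, for example from -0.14 to 2.46 for *Dll3* (1.16 ± 0.58) and from -0.87 to 0.10 for *Notch2* (-0.38 ± 0.22). *Dll3* was higher in PDGFRA+ cells in each of the 3 tumors, by 0.34 in T3, 1.36 in T4 and 1.77 in T5 on the log2 scale.

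The positive-over-negative difference was then compared between the sorts, as the PDGFRA+ over PDGFRA- difference minus the GAL1+ over GAL1- difference. It passed for 8 of the 10 genes. *Dll1*, *Dll3* and *Notch1* were on the positive side against 24.9% of all genes, and *Dll4*, *Jag1*, *Jag2*, *Notch2* and *Notch3* on the negative side against 26.2%. *Hes1* (-0.50 ± 0.35, adjusted p = 0.258) and *Hes5* (1.81 ± 0.77, adjusted p = 0.076) did not pass.

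The make-up of the ligand and receptor RNA was set out by dividing CPM by exon length and taking each gene as a share of its family in the same library. *Dll1* and *Dll3* together made up 10.7%, 3.53% and 2.91% of the RNA of the 5 ligands in GAL1+ cells of T3, T4 and T5, and 59.0%, 49.0% and 64.2% in GAL1- cells. The share was 40.3%, 30.4% and 31.6% in PDGFRA+ cells and 34.7%, 23.7% and 11.1% in PDGFRA- cells. *Jag1* took most of the remainder, with 82.7% ± 8.57 (SD, n = 3) in GAL1+, 52.7% ± 9.28 in PDGFRA+ and 38.3% ± 6.69 in GAL1- cells. GAL1- cells were the population in which *Dll1* and *Dll3* together outweighed *Jag1* in all 3 tumors. Among the 3 receptors *Notch1* held 84.6% ± 1.69 in GAL1-, 65.7% ± 5.92 in PDGFRA+ and 41.1% ± 8.09 in GAL1+ cells, and *Notch2* held 11.5% ± 2.79, 26.8% ± 8.99 and 52.2% ± 10.6. *Notch2* thus exceeded *Notch1* per length in T4 and T5 of GAL1+ cells (48.4% against 44.0%, and 64.2% against 32.0%) and in T5 of PDGFRA- cells (61.3% against 36.2%). The shares are within a library and say nothing of the total, and a smaller share may accompany an equal level.

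**Figure D4:**
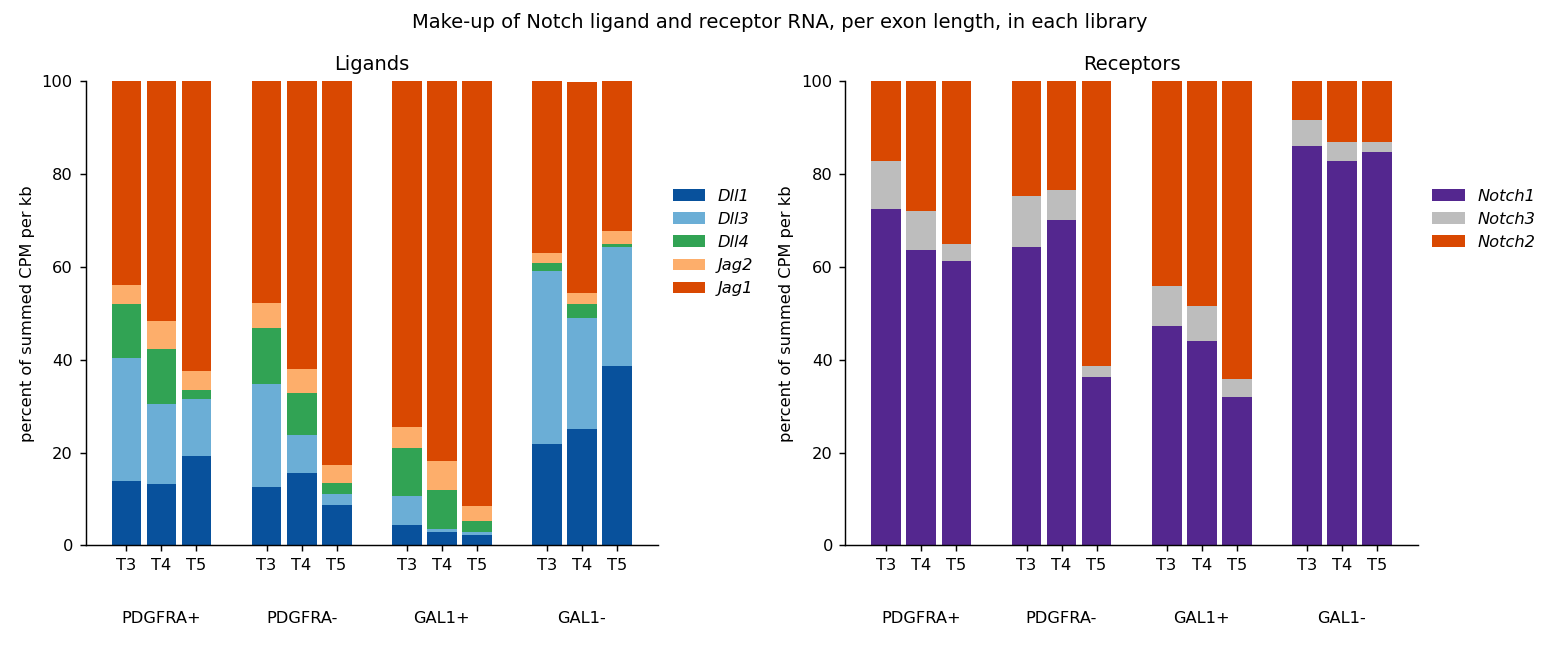
Percent of summed CPM per kb taken by each of the 5 ligands (left) and 3 receptors (right) in each of the 12 libraries, ordered by population and tumor. The *Dll1* and *Dll3* segments reach 49.0% to 64.2% together in GAL1- and 2.91% to 10.7% in GAL1+ libraries, and the *Notch1* segment 82.8% to 86.1% and 32.0% to 47.3%.

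Tumors differed in the Notch genes too. T5 had the lowest *Dll4* and the lowest *Notch3* of the 3 tumors in all 4 populations, with *Dll4* at -0.67 to 1.98 log2 CPM in T5 and 0.58 to 4.01 in T3. The endothelial and mural marker sums were also lowest in T5 in every population, and *Notch4*, a receptor of endothelium, was lowest in T5 in 3 of them. T3 had the highest *Dll3* and *Notch3* and the lowest *Notch2* and *Hes1* in all 4 populations. *Hes5* was lowest in T4 in all 4 and highest in T5 in 3. With 3 tumors no test of a tumor against the rest was made.

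The wider pathway was described with 57 other genes, grouped by role, of which 56 were in the table (*Hes7* was not listed). In GAL1+ over GAL1- cells 22 were higher (39.3%, against 28.9% of all genes) and 17 lower (30.4%, against 29.3% of all genes), and their median was 0.16 on the log2 scale. PDGFRA+ against GAL1+ cells had 15 that were higher (26.8%, against 20.9% of all genes) and 14 that were lower (25%, against 17%), with a median of -0.15, and 19 of 56 passed without the block and 8 without T3. None of the 56 passed in PDGFRA+ over PDGFRA- cells in limma, where 8 had an unadjusted p under 0.05.

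Genes of receptor cleavage moved together. Of 10, 9 were higher in GAL1+ than in GAL1- cells and 0 lower, where 28.9% and 29.3% of all genes were, and *Aph1b* (0.38, adjusted p = 0.313) did not pass. The increases included *Adam10*, the protease of the first cut (1.67 ± 0.15, adjusted p = 4.27e-05), *Furin*, which cleaves the receptor during its maturation (2.28 ± 0.21, adjusted p = 4.62e-05), and the γ-secretase subunits *Psen2* (2.23 ± 0.20) and *Aph1c* (2.62 ± 0.30). In PDGFRA+ against GAL1+ cells 7 of the 10 were lower and 0 higher, where 17% and 20.9% of all genes were, *Aph1c* the most (-1.46 ± 0.30, adjusted p = 0.0062). Without the block 5 passed, and *Aph1c* did not (adjusted p = 0.155). Many of these genes act on other substrates, and their part in Notch cleavage was not measured. *Rbpj*, the DNA-binding partner of Notch, likewise rose in GAL1+ over GAL1- cells (1.37 ± 0.18, adjusted p = 0.000182) and lower in PDGFRA+ than in GAL1+ cells (-0.95 ± 0.18, adjusted p = 0.00425). In these comparisons the pan-leukocyte and microglial sums moved the same way, the latter 1800 to 2481 CPM in GAL1+ and 82.3 to 153 CPM in GAL1- cells.

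Most of the other genes listed as targets went the other way from the cleavage genes. Of *Hes6*, *Hey1*, *Hey2*, *Heyl* and *Nrarp*, 4 were lower in GAL1+ than in GAL1- cells, where 29.3% of all genes were, *Hey2* by the most (-2.05 ± 0.39, adjusted p = 0.0017), followed by *Hey1* (-1.47 ± 0.30), *Nrarp* (-1.27 ± 0.36) and *Hes6* (-0.57 ± 0.20). *Heyl* was 1.41 ± 0.57 and missed the threshold (adjusted p = 0.0566). In PDGFRA+ over GAL1+ cells *Hey1* (1.16 ± 0.30), *Hey2* (1.32 ± 0.39) and *Nrarp*, a feedback inhibitor of Notch (1.54 ± 0.36), were higher, where 20.9% of all genes were. *Hes6* (0.49, adjusted p = 0.0767) and *Heyl* (-0.17, adjusted p = 0.837) did not pass there. *Hes5* thus had 4 of these 5 genes on its side in the GAL1 sort, and *Hes1* had no call on either side. The 5, *Hes6* included, were listed as targets from general knowledge, and their response to Notch was not measured.

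Regulators of ligand and receptor split within their groups. Of the genes for ligand endocytosis, *Neurl1a* (-1.59 ± 0.26) and *Neurl1b* (-2.25 ± 0.31, adjusted p = 0.000232) were lower in GAL1+ than in GAL1- cells, and *Mib1* (-0.24, adjusted p = 0.122) and *Mib2* (-0.07, adjusted p = 0.663) did not pass. Among the Fringe enzymes, which add sugars to the receptor and so set its response to Delta-like or Jagged ligands, *Mfng* (3.48 ± 0.33, adjusted p = 4.85e-05) and *Lfng* (2.17 ± 0.31, adjusted p = 0.000317) were higher and *Rfng* (-0.92 ± 0.18, adjusted p = 0.00216) lower. *Dtx1*, a Deltex ubiquitin ligase, fell the most of all 56 genes (-2.80 ± 0.34, adjusted p = 0.00013), and the atypical ligand *Dner* was also lower (-2.41 ± 0.46, adjusted p = 0.00156). *Notch4* was higher in GAL1+ (2.40 ± 0.32, adjusted p = 0.000212) and PDGFRA+ cells (1.75 ± 0.32, adjusted p = 0.00814) than in GAL1- cells. In PDGFRA+ over GAL1- cells 9 of the 56 were higher (16.1%, against 8.26% of all genes) and 0 lower (0.011% of all genes), led by *Mfng* (2.24), *Notch4* (1.75) and *Lfng* (1.25). Without the block 4 passed, and *Lfng* did not (adjusted p = 0.219). In PDGFRA+ over GAL1+ cells *Dtx1* (2.37), *Dner* (2.15) and *Neurl1b* (2.10) had the largest increases, and *Mfng* (-1.24, without the block adjusted p = 0.0683) and *Furin* (-1.17) followed *Aph1c* among the decreases. PDGFRA- cells had 14 genes higher (25%, against 16.2% of all genes) and 6 lower (10.7%, against 6.88%) than GAL1- cells, led by *Mfng* (2.48), *Notch4* (1.89) and *Furin* (1.63) and by *Dner* (-1.43), *Neurl1b* (-1.20) and *Dtx1* (-1.16). Against GAL1+ cells they had 8 higher (14.3%, against 13.2% of all genes) and 7 lower (12.5%, against 6.91%), led by *Dtx1* (1.64), *Hey2* (1.55) and the corepressor *Tle2* (1.36) and by *Aph1c* (-1.05), *Dtx4* (-0.91) and *Adam10* (-0.89). Without the block 6 and 3 genes passed in these comparisons, and of the genes named *Mfng*, *Notch4* and *Furin* passed in the first and *Adam10* in the second.

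**Figure D5:**
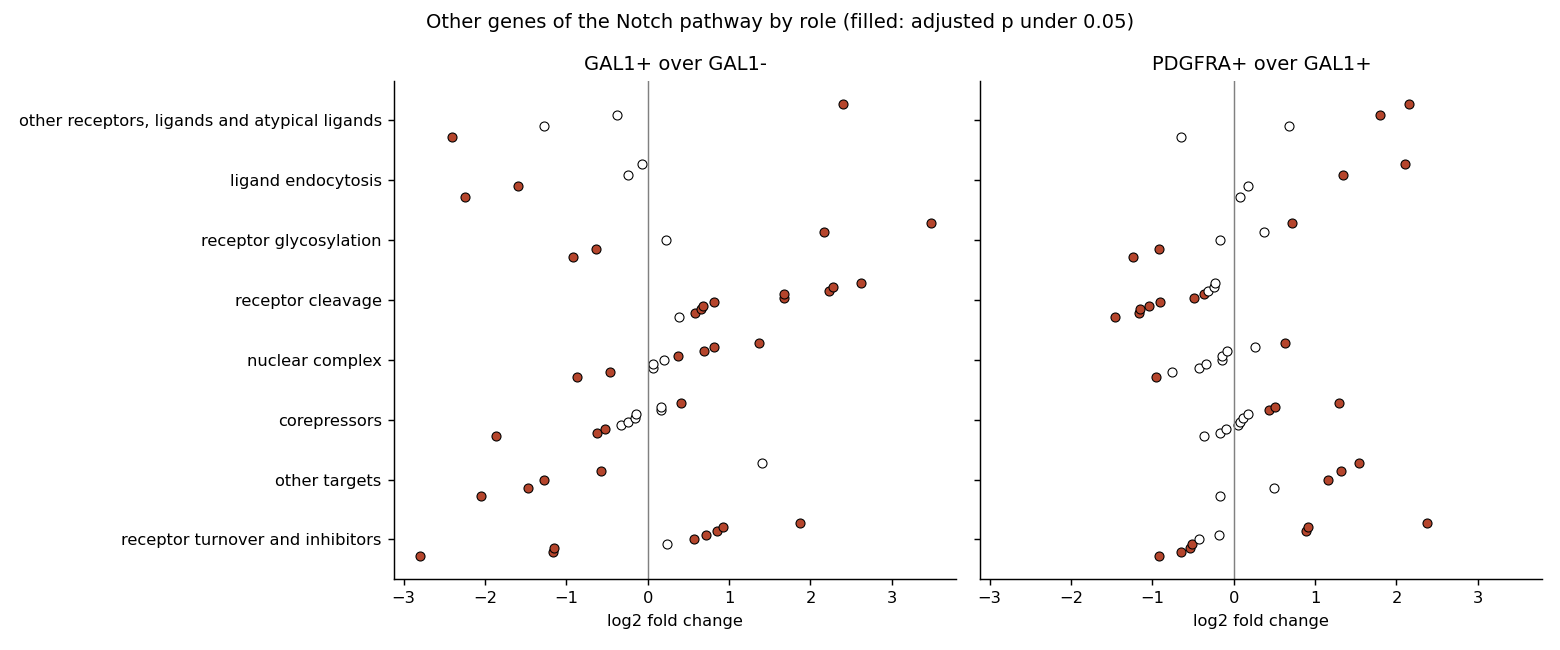
Log2 fold change of the other 56 Notch pathway genes, 1 point per gene, grouped by role, in GAL1+ over GAL1- (left) and PDGFRA+ over GAL1+ cells (right), with filled points where the adjusted p was under 0.05. All 10 receptor cleavage genes lie above 0 on the left and below 0 on the right, with 9 and 7 of them filled.

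The genes most like each member were found by Pearson correlation of log2 CPM over the 12 libraries among 13220 genes, as a description, since libraries of one population and one tumor share their make-up. *Dll3* was most like *Rtn1*, *Astn1* and *Acsbg1* (r = 0.991, 0.991 and 0.990), and *Dll1* like *Rap1gap*, *Plxna3* and *Dpyd* (r = 0.987, 0.984 and 0.982). *Dll4* was most like *Mmrn2*, *Pdgfrb* and *Cgnl1* (r = 0.982, 0.975 and 0.966), and *Notch3* like *Mmrn2*, *Cldn5* and *Emcn* (r = 0.953, 0.934 and 0.928). *Mmrn2*, *Cldn5* and *Emcn* are known from endothelium and *Pdgfrb* from mural cells. *Jag2* was most like *Adcy4*, *Ly6c1* and *Siglec1* (r = 0.968, 0.960 and 0.960), *Jag1* like *Zfp217*, *Fam71f2* and *Depdc7* (r = 0.984, 0.982 and 0.981), and *Notch2* like *Rnf149*, *Sat1* and *Myo1c* (r = 0.996, 0.995 and 0.995). *Notch1* was most like *Arhgef12*, *Rbfox2* and *Mtx3* (r = 0.988, 0.985 and 0.984). The targets had looser neighbors, *Hes1* with *Neil1*, *Setd1b* and *Zfp236* (r = 0.953, 0.934 and 0.922) and *Hes5* with *Uck1*, *Zbtb16* and *Igtp* (r = 0.890, 0.889 and 0.887).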

How the data were processed

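Bulk RNAseq of 12 libraries was used, 1 for each of 4 populations in each of 3 tumors. Part of the genotype shared by all groups is not reported here. RNA (1 ng) was made into stranded total-RNA libraries by SMART chemistry, and reads were trimmed with fastp, aligned with STAR to mm39 and counted over exons with featureCounts, with reads that map to several places counted as fractions. The authors then kept genes above 1 CPM in at least 3 samples, scaled by TMM and deposited log2 CPM with an offset of 0.5 (voom), and tool versions are not given in the sources used here. Gene families that share sequence may therefore share reads. Library sizes were recovered from the lowest values, giving 9851175 to 24117541 reads, and 3 reads correspond to -2.99 to -1.44 log2 CPM. These limits cover counting error only.

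The deposited log2 values were fitted with limma 3.58.1 (R 4.3.3), with a term for each population and tumor as a block, over all 12 libraries, using moderated two-sided tests with a mean-variance trend and Benjamini-Hochberg adjustment. voom weights were not part of the table. The block follows the study's methods and the labels, which give each tumor's number to 4 libraries, and deviations of the 18 same-tumor pairs correlated at 0.486 on average (0.140 to 0.662). That the 3 tumors came from separate mice is not in the labels. The script was tested on simulated data. The 10 genes and the marker and pathway lists were chosen with earlier results of these data known. Pathway genes with the 3 largest changes each way, in the same direction in all tumors, were named for each comparison by rule, and other pathway genes were named after their values were seen. Exon lengths came from GENCODE M21, promoters from RefSeq (GRCm38.p6), which is not the build of the alignments, and figures were drawn with matplotlib.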

Additional observations from a re-analysis of the deposited data

Results flagged for a closer look

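The positive-over-negative difference was not the same in the PDGFRA sort as in the GAL1 sort for 8 Notch genes, against 51.1% of all genes. That difference was itself tested (limma, adjusted p under 0.05). As the PDGFRA sort minus the GAL1 sort, on the log2 scale, it was 4.86 ± 0.82 (SE) for *Dll3* (adjusted p = 0.00113), 2.74 ± 0.42 for *Dll1* (adjusted p = 0.000678) and 0.89 ± 0.26 for *Notch1* (adjusted p = 0.0166). It was -2.98 ± 0.31 for *Notch2* (adjusted p = 0.000274), -2.64 ± 0.47 for *Dll4* (adjusted p = 0.0015), -2.16 ± 0.40 for *Jag1* (adjusted p = 0.00177), -1.69 ± 0.32 for *Jag2* (adjusted p = 0.002) and -0.95 ± 0.24 for *Notch3* (adjusted p = 0.00861). *Dll4* and *Notch3* did not pass without the tumor block (adjusted p = 0.103 and 0.347). The pan-leukocyte sum also differed between fractions in the GAL1 sort (2934 to 4006 CPM against 82.4 to 217) and overlapped between fractions in the PDGFRA sort (666 to 1511 against 685 to 3115), and its part in these values was not tested. Groups of 3 libraries are too small to single out a library by a gap rule.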

How the results depend on the processing

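Counts of Notch genes past the threshold were recomputed under 13 alternatives. Without the tumor block, that is unpaired, 2 passed in PDGFRA+ over GAL1+, 1 in PDGFRA+ over GAL1-, 1 in PDGFRA- over GAL1+ and 2 in PDGFRA- over GAL1-, against 5, 4, 3 and 5 with it, and 7 in GAL1+ over GAL1- against 9. Counts over all 18180 genes fell too. They were 3154, 612, 725, 1444 and 8392 without the block, against 6900, 1504, 3652, 4200 and 10578 with it, for these comparisons in turn. Fitting the 2 populations alone gave 3 in PDGFRA- over GAL1-. Leaving out libraries gave 2 to 5, 0 to 5, 0 to 5 and 3 to 5 in the same order, with 8 to 9 in GAL1+ over GAL1-, 6 to 8 in the test over all populations and 7 to 8 for the difference between sorts. PDGFRA+ over PDGFRA- gave 0 under every alternative.

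Single-gene values that changed sign were all short of the threshold. Over the left-out libraries, PDGFRA+ over GAL1+ ran from -0.48 to 0.09 for *Dll4*, -0.18 to 0.06 for *Notch3* and -0.29 to 0.03 for *Hes1*. PDGFRA+ over PDGFRA- ran from -0.38 to 0.34 for *Dll4*, -0.49 to 0.05 for *Jag1*, -0.40 to 0.06 for *Jag2*, -0.01 to 0.52 for *Notch1* and -0.18 to 0.14 for *Hes5*. *Dll4* was there 0.14 with vooma weights and 0.01 on the log2(CPM + 1) scale. *Hes1* in PDGFRA+ over GAL1- ran from -0.18 to 0.11, and *Jag2* in PDGFRA- over GAL1+ from -0.37 to 0.08. Centring on the median moved the median of all genes in PDGFRA+ over GAL1+ from 0.01 to -0.15, and quantile normalization moved it in PDGFRA+ over GAL1- from -0.02 to -0.15, with 4 genes past the threshold in each. The cause of these changes was not tested. Depth limits *Hes5* and *Dll3*, which rested on as few as 9 and 6.25 reads in GAL1+ libraries.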
